A study of Mus musculus with 4 samples.

Results

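The genes described here are 7 mouse host genes of small nucleolar RNAs (snoRNAs): Gas5, Snhg1, Snhg3, Snhg5, Snhg6, Snhg8 and Snhg12. They were chosen by name, as the rows of the deposited expression table whose Ensembl identifiers map to these symbols, and all 7 were found among 47633 genes. The snoRNAs themselves are separate rows and are not members. RNA sequencing of total RNA was done on 4 libraries from mouse embryonic stem (ES) cells of the strain 129S2/SvPas. The first group was 1 library of cells kept 2 days without leukaemia inhibitory factor (LIF), the cytokine that holds ES cells undifferentiated. The second was 1 library labelled embryoid body (EB), after 5 days without LIF. The reference was 2 libraries of ES cells grown with LIF. All came from cultures started on fibroblasts of C57/BL6 embryos whose division mitomycin C had stopped, in medium with serum. Separate cultures are not stated for the ES pair, so each p-value here rests on a spread between samples that may be technical. They also do not say whether fibroblasts were still present after LIF was removed.

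A host gene is transcribed and spliced like other genes, and its snoRNAs are cut out of the introns. Box C/D snoRNAs guide methylation of ribosomal RNA and box H/ACA snoRNAs guide its pseudouridylation, so host genes supply the machinery that makes ribosomes. The spliced RNA left over codes for no conserved protein in these 7 genes. In several hosts it starts with a run of pyrimidines, the 5′ terminal oligopyrimidine (TOP) signal that ribosomal protein mRNAs also carry, and it is degraded by nonsense-mediated decay, which is coupled to translation. Gas5, growth arrest-specific 5, is the classic example, named for its accumulation in cells that stop growing, and it has also been linked to self-renewal of mouse ES cells.

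The start regions are shown because several of these genes are known to carry a TOP run. Each line below gives RefSeq sequence of build GRCm38.p6, with 45 bases before the annotated start and the first 15 transcribed bases. Capitals mark a C followed by at least 4 bases that are each C or T, on the transcribed strand, beginning within 5 bases of the annotated start.
Gas5 (chr1:161035121-161035180, plus strand): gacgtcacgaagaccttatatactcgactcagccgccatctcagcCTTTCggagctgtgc
Snhg1 (chr19:8723442-8723501, plus strand): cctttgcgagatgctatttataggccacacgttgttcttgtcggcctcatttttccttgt
Snhg3 (chr4:132353672-132353731, minus strand): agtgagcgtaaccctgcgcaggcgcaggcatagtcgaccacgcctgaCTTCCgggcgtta
Snhg5 (chr9:88522883-88522942, minus strand): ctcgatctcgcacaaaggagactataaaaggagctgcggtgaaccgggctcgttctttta
Snhg8 (chr3:123508322-123508381, minus strand): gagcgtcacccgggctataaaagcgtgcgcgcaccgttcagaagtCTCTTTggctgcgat
Snhg12 (chr4:132308633-132308692, plus strand): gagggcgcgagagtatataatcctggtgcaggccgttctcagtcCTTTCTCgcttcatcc

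The table of starts held 7 annotated starts for 6 of the members, Gas5 having a further start upstream without such a run. Exactly at the start the run was present in 2 of these 7, Gas5 and Snhg8, or 28.6%. It was present at 823 of 32851 annotated starts of all genes (2.51%) and at 13 of 66 starts of genes named as ribosomal proteins (19.7%). Within 5 bases it was found in 4 of the 7, adding Snhg12 and Snhg3, against 18.3% of all starts and 43.9% of ribosomal protein starts. No such run lay within 5 bases of the Snhg1 and Snhg5 starts, which says only that these letters are not in this window. The letters TATAAA, between 45 and 16 bases before the start, were in 2 of the 7 (Snhg5 and Snhg8) against 2.14% of all starts. On the other strand they were in 1 of the 7, against 0.737% of all starts.

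Inside the 7 genes the GENCODE annotation (mouse release 21, GRCm38) places 29 snoRNA entries at 27 separate positions on the host's strand. Gas5 has 9 positions, Snhg1 has 8, Snhg12 has 4, Snhg3 and Snhg5 have 2 each, and Snhg6 and Snhg8 have 1 each. Of the 21 entries shorter than 100 nt, 17 carry TGATGA in their first 20 bases and CTGA in their last 16, the letters of boxes C and D. The GENCODE transcripts below show such a snoRNA of Gas5 and the pair of Snhg5, whose host had the largest difference in FPKM between the derived libraries relative to its level, with boxes C and D in capitals.
Snord47 (in Gas5, chr1:161038082-161038158, plus strand): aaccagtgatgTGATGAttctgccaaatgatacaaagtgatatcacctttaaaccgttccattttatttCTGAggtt
Snord50a (in Snhg5, chr9:88521529-88521600, minus strand): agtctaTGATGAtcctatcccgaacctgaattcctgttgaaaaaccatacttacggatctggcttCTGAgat
Snord50b (in Snhg5, chr9:88521797-88521868, minus strand): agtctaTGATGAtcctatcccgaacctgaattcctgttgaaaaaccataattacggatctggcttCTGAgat
The Snhg5 pair differs by 1 base in 72, C50A, with positions counted from 1 at the 5′ end and the base of Snord50a given first.

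These short snoRNAs cannot be read from the table. All 458 snoRNA entries under 100 nt in the whole table are listed at 0 in all 4 libraries, so a 0 there is no measure of absence. Among the 29 entries inside the hosts, 4 were above 0 in any library. The values below are therefore those of the host transcripts, in FPKM (fragments per kilobase of gene model, scaled to library size), as the authors deposited them. Annotated exons of the hosts, counting isoforms that retain introns, cover 26 of the 29 snoRNA entries completely, the exceptions being the entries of Snhg3 and Snhg6. Whether snoRNA fragments were counted towards a host was not tested.

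Depth, estimated from the FPKM that a single fragment gives in single-transcript genes, was about 18.1 M fragments (M, mega) after LIF withdrawal, 26.4 M in the EB library and 31.5 M and 26.4 M in ES 1 and ES 2. Taking the union of exons as gene length, the members held from 448 fragments (Snhg6 after LIF withdrawal) to 35321 (Gas5 in ES 1). Counting error alone was then 0.532% to 4.72% of a value. The SD of the ES pair was 1.58% of the mean for Snhg1, the closest pair, and 5.26 FPKM on a mean of 47.8 FPKM for Snhg8, the widest; for Snhg6 it was 1.83%, less than the counting error of its ES libraries (3.54% and 3.81%). Of the germ layer markers T, Mixl1, Gata4, Gata6, Sox17, Foxa2, Sox1 and Pax6, 2 of 8 reached 1 FPKM in any library. The summed level of Pou5f1, Nanog, Sox2, Zfp42, Klf4 and Esrrb was 1135 FPKM after LIF withdrawal, 1329 in the EB library and 1253 and 1226 in the ES libraries. The sum hides members that went opposite ways. After LIF withdrawal 4 of the 6 were below both ES libraries and 1 above, against 36.6% and 48.4% of all tested genes. In the EB library 2 were below both and 4 above, against 42.9% and 37.6%. The germ layer markers summed to 3.79 FPKM after LIF withdrawal, 3.25 in the EB library and 6.10 and 5.29 in the ES libraries. By these markers the EB label was not matched by germ layer genes, and the library is called EB only by its label.

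All 7 hosts were well expressed, each at 1 FPKM or more in every library. In ES cells their order was Gas5, Snhg1, Snhg5, Snhg12, Snhg3, Snhg8 and Snhg6, from 292 ± 10.2 FPKM to 22.5 ± 0.412 FPKM (SD, n = 2). No 2 neighbours in that order overlapped between their ES libraries. Gas5 was 7th among 1108 long non-coding genes that reached 1 FPKM in any library, ranked by ES level, and Snhg6 was 43rd. The EB library had the same order. After LIF withdrawal Snhg5 stood above Snhg1 and Snhg3 above Snhg12. The 7 levels summed to 843 FPKM after LIF withdrawal and 896 in the EB library, against 955 and 909 in ES 1 and ES 2.

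**Figure D1:**
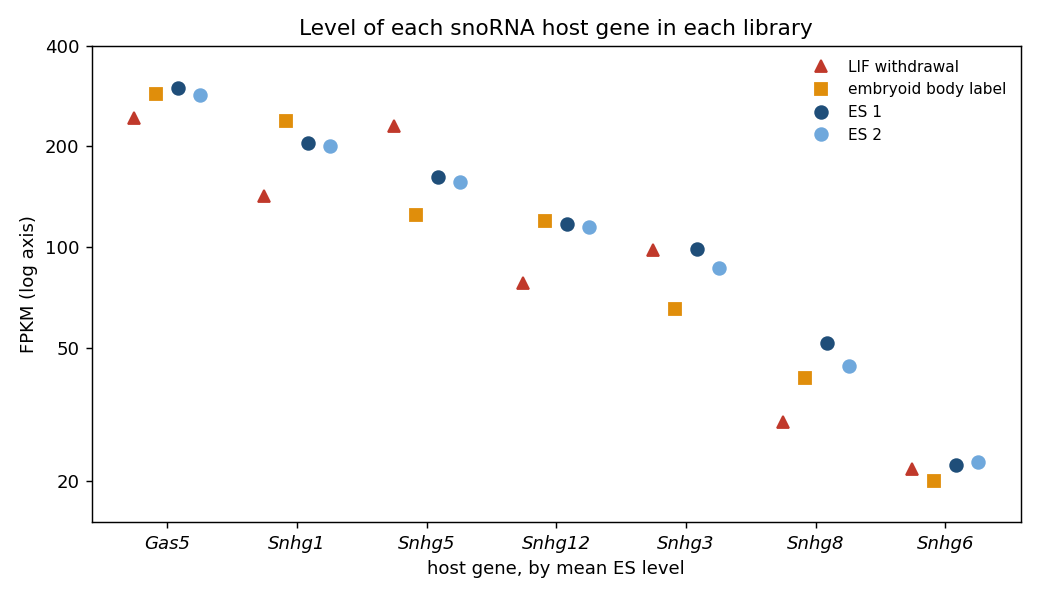
FPKM of each host gene (log axis) in the LIF-withdrawal library (triangles), the EB-labelled library (squares) and the 2 ES libraries (circles), 1 point per library. Snhg5 is highest after LIF withdrawal at 230.3 FPKM, while Snhg1, Snhg12, Snhg8 and Gas5 are lowest there.

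The first comparison asked how host RNA differed after 2 days without LIF. The values split in 2 directions: Snhg8, Snhg12, Snhg1 and Gas5 were lower, Snhg5 was higher, and Snhg6 and Snhg3 stayed close to ES cells. None passed the call used here, a limma (linear model with moderated variance) adjusted p under 0.05 with a change of at least 2-fold, which 7.67% of the 15676 tested genes passed. At unadjusted p under 0.05 limma had 3 of the 7 (Snhg1, Snhg5 and Snhg12), against 37.2% of all tested genes. No member was 1.5-fold from both ES libraries, against 17.4% of all genes. Without ES 2, 2 hosts were 1.5-fold from the remaining ES library, against 24.7% of all genes. Rescaling FPKM to TPM, which divides by the FPKM sum, moved the median of all genes by -0.53 after LIF withdrawal. Under TPM 5 hosts were 1.5-fold from both ES libraries, against 41.2% of genes, and 3 were 2-fold, against 13.5%. The fit has 1 residual degree of freedom, from the ES pair, so a lone library is assumed to vary as ES cells did.

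Genes listed as feeder fibroblast markers were higher after LIF withdrawal. Of 10 markers 9 were tested and limma called 4 higher (Postn, Dcn, Col5a2 and S100a4) and 0 lower, where 7.32% of all tested genes were called higher. All 9 were above both ES libraries, against 48.4% of all tested genes. The summed level of the 10 was 163 FPKM after LIF withdrawal, 50.4 in the EB library, and 45.1 and 42.8 in ES cells. Of the LIF-withdrawal sum S100a4 alone held 73.2 FPKM. In the EB library limma called 0, against 0.396% of all tested genes, and 6 were at unadjusted p under 0.05, against 27.7%. There 4 of the 9 were above both ES libraries and 4 below both, against 37.6% and 42.9% of all tested genes. Dcn was at 11.1 FPKM in the EB library against 0.695 and 0.664 FPKM in ES cells, whereas Col5a2 was at 3.44 FPKM against 7.72 and 7.64 FPKM. Lum was at or near 0 in every library, 0.493 FPKM at most. Whether these transcripts came from feeders or from cells derived from the ES cells was not tested. The part of feeder RNA in the host values was not tested either. In bulk RNA a change in the number of cells of a type and in RNA per cell cannot be told apart.

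Snhg1, the host of Snord22 and the first gene recognised as having its function in its introns rather than its exons, lies on chromosome 19, 8723475 to 8726443, plus strand. It was at 142 FPKM after LIF withdrawal and 205 and 200.4 FPKM in the ES libraries. The derived library lay below both, at 0.702 of the ES mean, and the ES pair were within 1.58% of their mean (SD). The change was -0.51 on the log2(FPKM + 1) scale (SE 0.03, limma adjusted p = 0.0572 over all genes).

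Snhg12 (chromosome 4, 132308623 to 132311024, plus strand), the host of Snora16a, Snora44, Snora61 and Snord99, was at 77.8 FPKM after LIF withdrawal and 118 and 114 FPKM in the ES libraries. It too lay below both, at 0.671 of the ES mean (-0.57, SE 0.03, adjusted p = 0.0519). Across the 4 libraries Snhg1 and Snhg12 were the most alike pair of members. Their centred log2 profiles were 0.155 apart (Euclidean distance), where the other 20 pairs were 0.257 to 1.17 apart.

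Snhg8, the host of the H/ACA snoRNA Snora24, lies on chromosome 3, 123507552 to 123508404, minus strand. It was at 30.0 FPKM after LIF withdrawal and 51.5 and 44.0 FPKM in ES cells. This was the lowest relative level of the 7, 0.628 of the ES mean (-0.65). Its ES libraries were also the furthest apart relative to their mean, and the limma adjusted p was 0.144 (SE 0.14).

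Gas5 (chromosome 1, 161034422 to 161038539, plus strand) was at 244 FPKM after LIF withdrawal and 299 and 284 FPKM in ES cells. It was below both ES libraries, at 0.836 of their mean (-0.26, SE 0.05, limma adjusted p = 0.139). Gas5 is known for accumulating in arrested cells, but whether growth had stopped in this library was not tested.

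Snhg5, host of the Snord50 pair shown above, ran the other way. It lies on chromosome 9, 88521050 to 88522929, minus strand. It was at 230.3 FPKM after LIF withdrawal and 162 and 157 FPKM in ES cells, above both by 1.42-fold and 1.47-fold. The change was 0.53 (SE 0.04, limma adjusted p = 0.063). Under TPM it was at -0.11, which is 0.42 above the shifted median of all genes. It was the 1 member above both ES libraries, where 5 of 7 were below both. Over all tested genes 48.4% were above both and 36.6% below both.

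Snhg6 (chromosome 1, 9941959 to 9944118, minus strand), host of Snord87, was at 21.7 FPKM after LIF withdrawal and 22.2 and 22.8 FPKM in ES cells, a change of -0.05 (limma adjusted p = 0.404). Snhg3 (chromosome 4, 132348014 to 132353686, minus strand), the host of the U17 snoRNAs Snora73a and Snora73b, was at 97.7 FPKM after LIF withdrawal and 98.6 and 86.5 FPKM in ES cells. It lay between the ES libraries, with a change of 0.08 (SE 0.12, adjusted p = 0.678) that was -0.0123 without ES 2 and, under TPM, -0.56, or -0.0271 relative to the all-gene median.

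**Figure D2:**
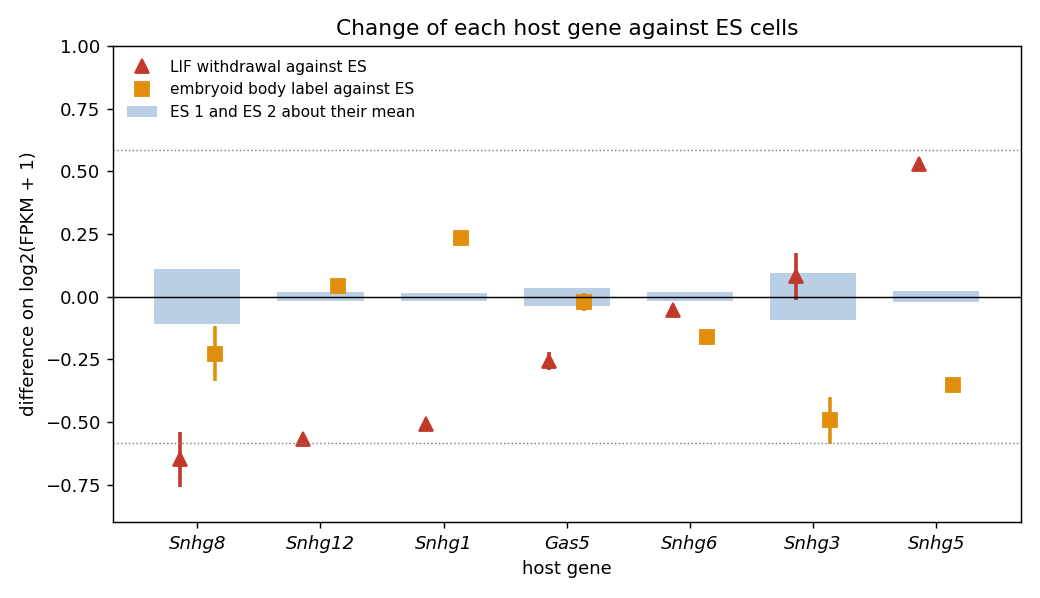
Difference of each host gene on the log2(FPKM + 1) scale for LIF withdrawal against ES (triangles) and the EB label against ES (squares), with vertical lines spanning the differences from the 2 ES libraries. Shaded boxes show the ES libraries about their mean and dotted lines mark 1.5-fold; Snhg5 lies at 0.53 (-0.11 under TPM, 0.42 relative to the all-gene median) and -0.35, Snhg1 at -0.51 and 0.23.

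The members were not equally free of overlapping genes. Snhg1, Snhg5 and Snhg12 are among 6808 tested genes here called strand-clear. These are protein-coding or long non-coding genes with 1000 nt or more of exon. In addition, no annotated gene on the other strand overlaps any part of their body. Fitted in that set alone, the LIF-withdrawal differences of all 3 were under an adjusted p of 0.05 (limma adjusted p = 0.0272 for Snhg1, 0.0269 for Snhg5 and 0.0241 for Snhg12). Of the strand-clear genes 22.0% were under it at any fold, and 3.04% also passed the 2-fold bound, which none of these 3 did. The changes themselves were the same as over all genes. Their SEs were larger, at 0.058 for Snhg1, 0.059 for Snhg5 and 0.0551 for Snhg12. The lower adjusted p thus came with the choice of gene set and not with a clearer difference. The same holds for the EB change of Snhg5 given below. Snhg8 has no opposite-strand partner either and is left out only for its 853 nt of exons.

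The opposite-strand partners of the other hosts were at their highest after LIF withdrawal. Gm17300, a long non-coding gene covering 71.5% of the exon length of Snhg3, was listed at 49.4 FPKM after LIF withdrawal and at 0 in the EB library and both ES libraries. Mcmdc2, which overlaps 11.1% of Snhg6 exons, was at 8.19 FPKM after LIF withdrawal, 0.665 in the EB library and 0.746 and 0.587 in the ES libraries. Zbtb37, whose body reaches 428 nt into Gas5 without sharing exon sequence, was at 7.02 FPKM after LIF withdrawal, 6.61 in the EB library and 4.62 and 5.28 in the ES libraries. The labels do not say whether strand was used in counting. The levels of Snhg3 and Snhg6 are therefore uncertain in the LIF-withdrawal library, and the part of strand in them was not tested.

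The second comparison asked how host RNA differed in the EB library. Snhg3 and Snhg5 were lower, Snhg1 was slightly higher, and the other 4 were at 0.848 to 1.03 of the ES mean. By limma 0 of 7 were called, against 0.396% of all tested genes, and 2 of 7 (Snhg1 and Snhg5) were at unadjusted p under 0.05, against 27.7%. No member was 1.5-fold from both ES libraries, against 8.11% of genes, and without ES 2 there was 1, against 11.1%.

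Snhg3 was at 65.3 FPKM in the EB library and 98.6 and 86.5 FPKM in ES cells, below both at 0.706 of their mean (-0.49, SE 0.12, limma adjusted p = 0.206). Snhg5 was at 125 FPKM in the EB library against 162 and 157 FPKM in ES cells, 0.782 of their mean. Its change of -0.35 had a limma adjusted p of 0.141 over all genes. Over strand-clear genes the adjusted p was 0.0496, where 14.3% of genes were under 0.05 at any fold, and the change did not reach the 2-fold bound, which 2.31% of strand-clear genes passed together with that p. Snhg1 was at 239 FPKM against 205 and 200.4 FPKM in ES cells, above both by 1.16-fold and 1.19-fold (0.23, limma adjusted p = 0.149).

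The remaining hosts were closer to ES cells. Snhg8 was at 40.5 FPKM in the EB library and 51.5 and 44.0 FPKM in ES cells (-0.23, adjusted p = 0.437), and Snhg6 at 19.99 FPKM against 22.2 and 22.8 FPKM (-0.16, adjusted p = 0.184). Both were below the 2 ES libraries. Gas5 was at 287 FPKM in the EB library, between the 299 and 284 FPKM of the ES libraries, and Snhg12 was at 120 FPKM against 118 and 114 FPKM (0.04, adjusted p = 0.488; under TPM -0.0537, or 0.0402 relative to the all-gene median). The Gas5 change of -0.02 flipped to 0.0276 with median-of-ratios scaling and to 0.0137 without ES 1. Of the 7, 4 were below both ES libraries and 2 above, against 42.9% and 37.6% of all tested genes.

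Set directly against each other, with 1 library each and no test, the derived libraries differed most in Snhg5 and Snhg1 on the FPKM scale; relative to the all-gene median under TPM the order was Snhg1 (log2 ratio 0.88), Snhg12 (0.75) and Snhg5 (-0.75). Snhg5 was at 125 FPKM in the EB library and 230.3 FPKM after LIF withdrawal, a ratio of 0.541. Snhg1 was at 239 FPKM in the EB library and 142 FPKM after LIF withdrawal, 1.68-fold. Snhg12 was 1.54-fold and Snhg8 1.35-fold higher in the EB library, Gas5 1.18-fold, and Snhg6 and Snhg3 were at 0.923 and 0.668 of the LIF-withdrawal level. Under TPM the log2 ratio of Snhg6 was 0.41, where the median of all genes was 0.40. None of the 7 was 2-fold apart, against 14.9% of tested genes, and under TPM there were 2, against 20.2%.

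The Snhg3 snoRNAs, which were above 0 in every library, differed more between the ES libraries than their host did. Of the 31 snoRNA entries of 200 nt or more, 12 were above 0 in any library. Their length alone thus does not make these values reliable. Snora73a and Snora73b are copies of U17, an H/ACA snoRNA needed for cleavage of the ribosomal RNA precursor rather than for its modification. The GENCODE transcripts are given because their likeness makes the division of reads between them uncertain. Capitals mark the bases at which they differ.
Snora73a (chr4:132352775-132352979, minus strand): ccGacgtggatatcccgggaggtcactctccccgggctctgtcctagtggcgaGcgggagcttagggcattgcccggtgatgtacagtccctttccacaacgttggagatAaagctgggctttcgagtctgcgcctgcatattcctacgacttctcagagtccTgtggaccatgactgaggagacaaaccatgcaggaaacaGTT
Snora73b (chr4:132352322-132352526, minus strand): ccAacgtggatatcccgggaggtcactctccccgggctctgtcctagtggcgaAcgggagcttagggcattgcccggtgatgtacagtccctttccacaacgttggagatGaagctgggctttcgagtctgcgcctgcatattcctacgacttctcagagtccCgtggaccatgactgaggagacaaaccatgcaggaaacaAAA
They differ at 7 of 205 positions (G3A, G54A, A111G, T164C, G203A, T204A and T205A, counted from the 5′ end with Snora73a first), an identity of 96.6%.

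Snora73a was at 211 FPKM after LIF withdrawal, 756 in the EB library, and 640.0 and 226 in ES 1 and ES 2. Snora73b was at 321 FPKM after LIF withdrawal, 1114 in the EB library, and 967 and 448 in ES 1 and ES 2. Both snoRNAs were thus high in the EB library and ES 1 and low after LIF withdrawal and in ES 2. The ES libraries alone were 2.83-fold and 2.16-fold apart, more than the EB library exceeded ES 1 (1.18-fold and 1.15-fold). The host itself was 98.6 FPKM in ES 1 and 86.5 FPKM in ES 2. Rcc1, the protein-coding gene that shares 135 nt of exon with Snhg3 on the same strand, was at 65.5 FPKM after LIF withdrawal, 65.6 in the EB library, and 77.0 and 81.7 in ES cells. In Snhg12, Snora44 was listed at 43.6 FPKM in ES 1 and Snora16a at 30.6 FPKM in the EB library, each at 0 in the other 3 libraries. Of the 1018 snoRNA entries from 100 nt to under 200 nt, 63 were above 0 in any library, so these zeros are no measure of absence either.

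**Figure D3:**
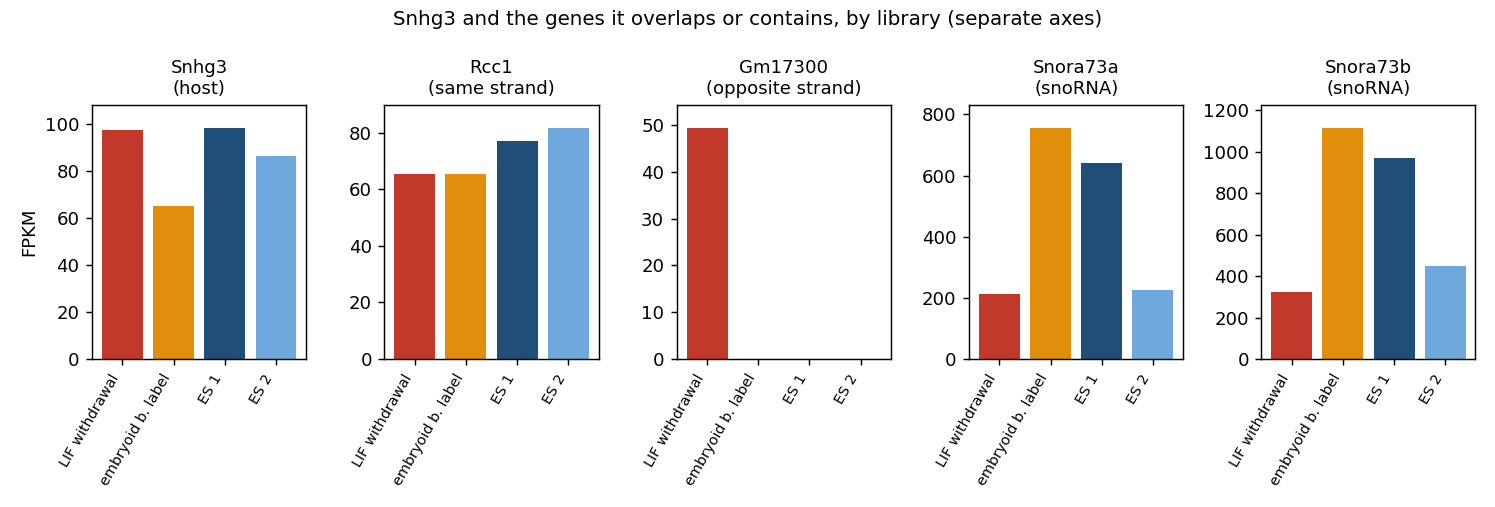
FPKM of Snhg3, of Rcc1 on its strand, of Gm17300 on the opposite strand and of the snoRNAs Snora73a and Snora73b, 1 bar per library and a separate axis from 0 for each gene. Gm17300 has a value only after LIF withdrawal (49.4 FPKM), and both snoRNAs are high in the EB library and ES 1.

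Slc3a2, an amino acid transporter subunit gene whose start lies 106 nt from that of Snhg1 on the other strand, was at 108 FPKM after LIF withdrawal, 100.1 in the EB library and 116 and 117 in ES cells. It was below the ES libraries in both, where Snhg1 was below them only after LIF withdrawal.

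Other genes of the snoRNA pathway gave a background for these values. Of the other non-coding snoRNA hosts, 8 of 13 listed names were tested, 2 were below 1 FPKM in every library and 3 were not analysed here. By limma 0 of the 8 were called in either comparison, with 1 at unadjusted p under 0.05 after LIF withdrawal and 5 in the EB library. Over all tested genes 37.2% were at that p after LIF withdrawal and 27.7% in the EB library. The shares called were 7.67% and 0.396%. Their median change was -0.05 after LIF withdrawal, against -0.26 for the 7 hosts and 0.04 for all genes tested. For the EB library the medians were -0.03, -0.16 and -0.01 in the same order. Zfas1, host of several C/D snoRNAs, was at 97.4 FPKM after LIF withdrawal, 92.6 in the EB library, and 94.0 and 88.6 in ES cells. Epb41l4aos was at 50.9 FPKM after LIF withdrawal, 45.6 in the EB library, and 59.5 and 58.4 in ES cells, and so lay below both ES libraries in each.

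Of 30 protein-coding hosts, mostly ribosomal protein and translation factor genes, limma called 0 in either comparison. After LIF withdrawal 4 were at unadjusted p under 0.05 by limma, against 37.2% of all tested genes. In the EB library 1 was, against 27.7%. The shares of all tested genes called were 7.67% and 0.396%. The medians of these hosts were -0.07 and -0.02. Rps12, a ribosomal protein gene and the most abundant of them in ES cells, was at 2546 FPKM after LIF withdrawal, 2208 in the EB library, and 2236 and 2322 in ES cells. Hspa8, the constitutive heat shock chaperone gene, was at 2783 FPKM after LIF withdrawal, 1926 in the EB library, and 1892 and 2103 in ES cells.

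Limma called 0 of 8 core snoRNP protein genes, 0 of 10 assembly factors, 0 of 10 RNA polymerase I genes and 0 of 9 regulators of mTOR and TOP mRNAs, in both comparisons. After LIF withdrawal 3, 0, 2 and 2 of them were at unadjusted p under 0.05 by limma, and in the EB library 3, 1, 3 and 3. Over all tested genes 37.2% and 27.7% were at that p, and 7.67% and 0.396% were called, in the same order of comparisons. Nop10, an H/ACA core protein gene named here after its values were seen, had the largest difference in these lists. It was at 19.9 FPKM after LIF withdrawal, 48.3 in the EB library, and 55.0 and 50.3 in ES cells, over 2-fold below both ES libraries after LIF withdrawal (-1.36, limma adjusted p = 0.0556). Nop56 and Nop58, which bind box C/D snoRNAs, were the most abundant core genes. Nop56 was at 825 FPKM after LIF withdrawal, 608 in the EB library, and 687 and 729 in ES cells. Nop58 was at 333 FPKM after LIF withdrawal, 272 in the EB library, and 291 and 352 in ES cells. In the EB library 7 of 8 core genes, 9 of 10 assembly factors and 9 of 10 polymerase I genes were below both ES libraries, against 42.9% of all tested genes, with medians of -0.23, -0.23 and -0.15. Ruvbl2 and Ruvbl1, ATPases of the assembly complex, were at 109 and 66.3 FPKM in the EB library and averaged 129 ± 6.60 and 86.2 ± 5.41 FPKM in ES cells (SD, n = 2).

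Rrn3, the initiation factor of RNA polymerase I, was at 146 FPKM after LIF withdrawal, 122 in the EB library, and 133 and 139.9 in ES cells. Polr1a, the largest polymerase I subunit, was at 90.4 FPKM after LIF withdrawal, 85.7 in the EB library, and 105 and 108 in ES cells. Larp1, which binds the TOP signal, was at 119 FPKM after LIF withdrawal, 99.3 in the EB library, and 126 and 129 in ES cells, below both ES libraries in each. Eif4ebp1, the translation repressor that mTOR controls, was at 64.9 FPKM after LIF withdrawal, 74.8 in the EB library, and 72.9 and 70.5 in ES cells.

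Limma called 0 of 10 factors of nonsense-mediated decay, with 2 and 3 at unadjusted p under 0.05 after LIF withdrawal and in the EB library, and medians of -0.02 and 0.06. Smg5, an adaptor of the decay machinery, was at 59.2 FPKM after LIF withdrawal, 73.8 in the EB library, and 64.9 and 70.2 in ES cells. Of 6 stress transcripts reported as decay targets 0 were called, with 4 and 1 at unadjusted p under 0.05 by limma. Beside both lists, 37.2% and 27.7% of all tested genes were at that p, and 7.67% and 0.396% were called. Atf4, a stress-induced transcription factor gene, was at 97.2 FPKM after LIF withdrawal, 144 in the EB library, and 143 and 146 in ES cells. Asns, which makes asparagine, was at 59.6 FPKM after LIF withdrawal, 52.3 in the EB library, and 42.7 and 41.8 in ES cells. The 2 transcripts thus lay on opposite sides of ES cells after LIF withdrawal.

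**Figure D4:**
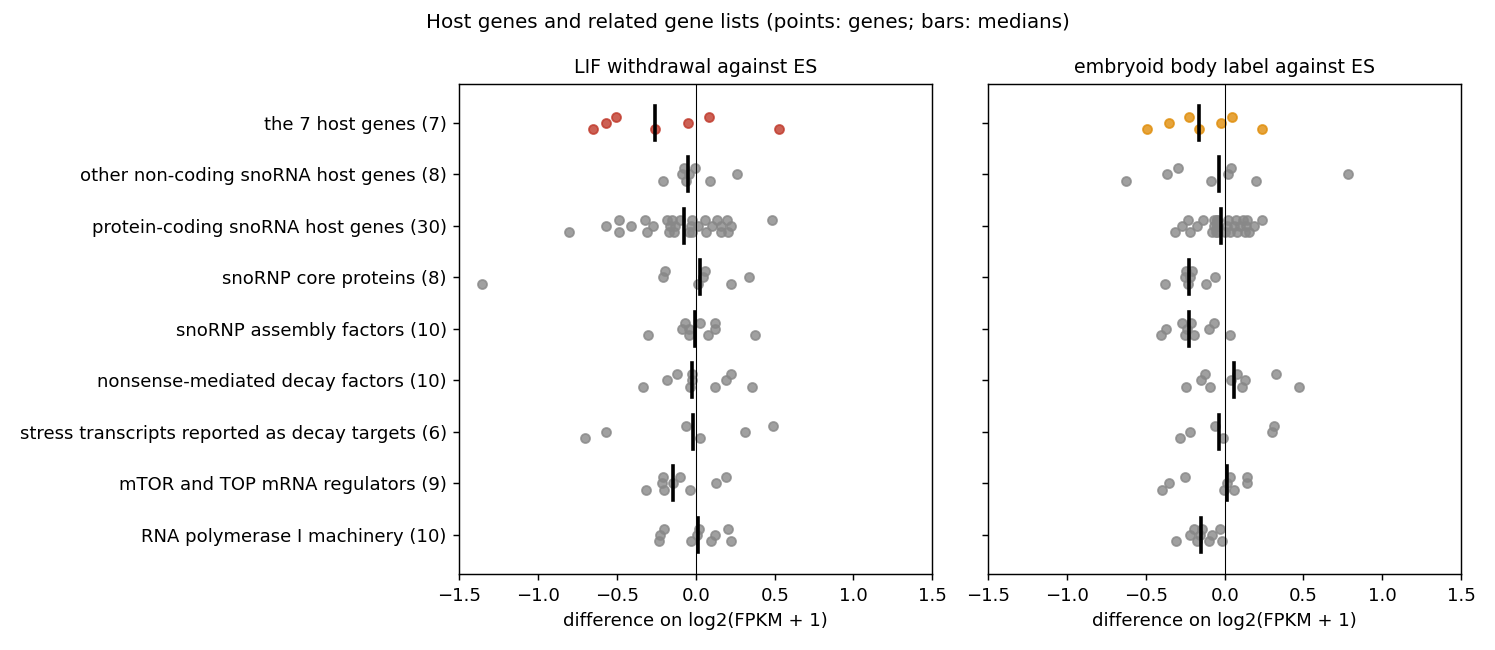
Differences on the log2(FPKM + 1) scale for the 7 host genes (top row, coloured) and 8 related lists (grey), for LIF withdrawal against ES on the left and the EB label against ES on the right; black bars are medians and numbers in brackets are genes tested. The hosts run from -0.65 to 0.53 after LIF withdrawal and from -0.49 to 0.23 in the EB library.

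Finally, the genes nearest to the mean profile of the 7 hosts over the 4 libraries were named by Euclidean distance, among 8595 protein-coding or long non-coding genes whose ES mean reached 5 FPKM. They were Fam98b, Mrps2, Mpp7, Casp6 and Exosc3, at distances of 0.00904 to 0.0229 on the centred log2 scale. Fam98b, the nearest, was at 22.0 FPKM after LIF withdrawal, 23.0 in the EB library, and 26.3 and 24.6 in ES cells. That mean profile was shallow, from -0.12 after LIF withdrawal to 0.13 in ES 1, and it averages members that went opposite ways.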

How the data were processed

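Total RNA was sequenced from 4 libraries (LIF withdrawal, the library labelled embryoid body, and 2 of ES cells). The authors deposited FPKM, 1 value per gene and library. Per the submitters' processing notes Trimmomatic 0.36, STAR, Cufflinks and mm10 were used. Their settings, the annotation and any use of strand were not given in the sources used here. The FPKM sum, by which TPM divides, had 37.7% in 1 small nuclear RNA row of 107 nt after LIF withdrawal.

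Identifiers were matched without version to GENCODE mouse release 21 (47219 of 47633). The 15676 genes that reached 1 FPKM anywhere entered limma 3.58.1 (R 4.3.3) as log2(FPKM + 1), 1 model of 3 groups with a trend on mean expression, p-values adjusted by Benjamini-Hochberg over all genes. A pseudocount of 1 understates changes of low genes. The steps were tested on simulated data. Their noise was drawn from the ES pair for every library, so they could not show whether a lone library varies more. Alternatives were other scalings, pseudocounts, filters, gene sets and left-out libraries. Members and lists were chosen with earlier results of these data known. From each related list, called genes or the 2 highest in ES cells were named, besides all 7 hosts, the snoRNAs with the highest levels in each host and the 5 genes nearest in profile. A result that this rule would name is not reported here. Slc3a2 and genes overlapping a host were named by position, after values were seen. Python 3.11.15 with pandas 2.3.3 served for the rest.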

Additional observations from a re-analysis of the deposited data

Results flagged for a closer look

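In 3 hosts the LIF-withdrawal library and the EB library lay on opposite sides of both ES libraries in FPKM, as did 27.4% of all tested genes. Under TPM this held for 1 host, Snhg1, and the share of all tested genes under TPM was not computed. Snhg5 had a difference (EB library minus LIF withdrawal) of -0.88 on the log2(FPKM + 1) scale, being below both ES libraries in the EB library and above both after LIF withdrawal. Snhg1 and Snhg12 went the other way, with differences of 0.74 and 0.61. The derived libraries have 1 sample each and share the ES libraries they are set against, so these differences were not tested. Snhg12 was above the nearer ES library by 1.02-fold in the EB library.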

How the results depend on the processing

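No paired analysis was possible because the derived groups hold 1 library each and so share fewer than 2 replicate numbers with the ES group. Of 132 alternatives for the change of a host against ES cells 125 kept direction and 7 reversed. Those that altered only the filter, the gene set or the variance trend left each change as it was, so they could not reverse it. The 125 therefore overstates how often direction was put to a test. Of the 132, 90 had a limma p and called no host, and 42 had none. TPM rescaling moved the median of all genes by -0.53 after LIF withdrawal and -0.09 in the EB library. The FPKM sum that TPM divides by was 865343 after LIF withdrawal and 594026 in the EB library. It was 582093 and 528718 in ES 1 and ES 2. In the LIF-withdrawal sum 37.7% came from 1 small nuclear RNA row. The cause of the changes below was not tested. Under TPM the LIF-withdrawal changes of Snhg3 and Snhg5 were -0.56 and -0.11 (-0.0271 and 0.42 relative to the all-gene median, an alternative chosen after seeing the data). The EB change of Snhg12 was -0.0537 (0.0402 relative), and the EB over LIF-withdrawal log2 ratio of Snhg6 was 0.41 (0.00863 relative). The median of the 7 was then -0.90 after LIF withdrawal and -0.26 in the EB library, with 3 hosts 2-fold (13.5% of all genes) and 5 hosts 1.5-fold (41.2%) from both ES libraries after LIF withdrawal and 2 hosts 2-fold apart (20.2%) between the derived libraries. With median-of-ratios scaling the EB change of Gas5 was 0.0276 and the EB median -0.12. Leaving out 1 ES library leaves no test: Snhg3 after LIF withdrawal then ran from -0.0123 (without ES 2) to 0.175, and Gas5 in the EB library from -0.0572 to 0.0137 (without ES 1). The medians then ran from -0.29 to -0.22 after LIF withdrawal and from -0.14 to -0.12 in the EB library, and hosts 1.5-fold away from 0 to 2 and from 0 to 1. Genes called after LIF withdrawal (1203) numbered 395 with a filter at 5 FPKM and 207 among strand-clear genes. Genes called in the EB library (62) numbered 131 with a pseudocount of 0.1, 138 without a filter, 41 with a filter at 5 FPKM, 157 among strand-clear genes and 0 without the variance trend, where limma had 4504 at unadjusted p under 0.05. The pyrimidine run was at 2 host starts exactly and at 4 within 5 bases. Counting error was largest for Snhg6 and Snhg8, at 4.72% and 4.65% after LIF withdrawal. The limma SE was instead largest for Snhg8 (0.14) and Snhg3 (0.12), and it was 0.03 for Snhg6.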
